A study of Mus musculus with 24 samples.

Results

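The comparison described here set lung tumours with the EGFR genotype L858R+T790M against lung tumours with T790M alone. Its members were chosen by their titles, which give 5 arrays to each genotype, so 10 of the 24 arrays of the series were compared. All 10 carry the strain label FVB. The tumours were nodules visible by eye, cut out of lungs of bitransgenic mice that had eaten doxycycline diet for 3 to 6 months, and the labels place a "C" before each EGFR allele without spelling it out. The other 14 arrays were 4 L858R tumours from mice of the label FVB mixed and 10 normal lungs, 5 labelled FVB and 5 FVB mixed, of littermates on doxycycline with no transgene or with 1 of them. Total RNA was hybridised to Affymetrix mouse arrays, with 1 array per sample. The labels give neither the promoter behind the transgenes, nor the age or sex of a mouse, nor whether each nodule came from a separate mouse, so p-values speak only of the spread between samples, which may be technical.

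EGFR is a receptor tyrosine kinase of epithelial cells that is switched on by peptide ligands and signals through the RAS-ERK and PI3K-AKT pathways. L858R lies in the kinase domain and keeps the receptor active without ligand in many lung adenocarcinomas. T790M changes the gatekeeper residue of the same domain and is best known from tumours that became resistant to the first EGFR inhibitors, where it usually sits on the same allele as an activating change such as L858R.

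Values are deposited log2 levels, differences are mean log2 levels of L858R+T790M minus T790M tumours ± SE, and values of arrays are listed from replicate 1 to replicate 5. Calls required an adjusted p below 0.05 in limma, fitted to the 14 tumour arrays with Benjamini-Hochberg adjustment over 18193 genes. The arrays of a gene were said not to overlap where all 5 values of one genotype lay above all 5 of the other. Leaving out an array can keep or raise the count of such genes and cannot lower it. Array medians lay between 7.21 and 7.34 in all 24 arrays. The spread within a group was larger in tumours, where the median SD of a gene was 0.158 in L858R+T790M, 0.186 in T790M and 0.183 in L858R, than in normal lungs, where it was 0.099 and 0.109. Y-linked genes and Xist gave a female pattern in L858R+T790M replicates 2, 3 and 5 and in T790M replicates 3 and 4. The signal of the Gapdh control probe sets at the 3' end differed from that at the 5' end by -0.19 to -0.03 in L858R+T790M and by -0.26 to -0.11 in T790M arrays.

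Few genes separated the tumours of both genotypes beyond the spread between arrays. Of the 18193 genes 2 were called (0.011%), Gpc6 and Slc26a4, both higher in L858R+T790M tumours, and 0 were called lower. An unadjusted p under 0.05 was reached by 923 genes higher (5.07%) and 940 lower (5.17%). Each p is two-sided, so both shares together, and not each alone, are to be set beside the threshold of 0.05. Together they exceed it. The arrays did not overlap for 188 genes higher (1.03%) and 223 genes lower (1.23%) in L858R+T790M, and with each array centred on its median for 216 and 124. The middle 90% of all differences lay between -0.39 and 0.38, the median difference was 0.01, and 191 genes differed by at least 1. The number of calls depended on the arrays that set the spread. With all 24 arrays in the fit, in which normal lungs lend their smaller spread, limma called 139 genes higher (0.764%) and 150 lower (0.824%), and 172 of these 289 did not overlap. With only the 10 arrays compared it called 0 in either direction, with 909 genes higher and 948 lower at an unadjusted p under 0.05 and a smallest adjusted p of 0.0549.

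Among probe sets with 1 annotated gene, 2 annotated to Prm1 differed most. They were bright in every tumour with L858R and near the bottom of the scale elsewhere. Prm1 and Clcn5 were singled out after their values were seen, in a fit to each of the 34945 probe sets with 1 annotated gene, which called 7 probe sets (0.02%). Protamine 1, the product of Prm1, packs the DNA of sperm heads, and the 3' part of its gene has been used to end the transcripts of some mouse transgenes. Probe set 1439379_x_at read 11.99, 10.32, 11.92, 12.10 and 11.48 in the L858R+T790M tumours and 4.09, 3.38, 3.51, 3.98 and 3.51 in the T790M tumours. Every L858R+T790M tumour lay far above every T790M tumour, with replicate 2 the lowest of its group. The difference was 7.87 ± 0.28, with an adjusted p of 4.548e-09 in limma. The FVB normals lay between 3.29 and 3.55, close to the T790M tumours, and the L858R tumours between 12.52 and 12.99, above all L858R+T790M tumours. Probe set 1437054_x_at gave the same picture, with 10.28 to 12.10 against 3.55 to 4.10 and a difference of 7.80 ± 0.29. The remaining Prm1 probe set, 1415955_x_at, is the brightest in normal lung and stands for the gene in the other counts. It read 8.14 to 8.56 against 8.13 to 8.19 and was not called (0.19 ± 0.08, adjusted p = 0.468). The labels do not describe the transgene constructs, and what the bright probe sets detect in these tumours was not tested.

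Clcn5 encodes an endosomal chloride-proton exchanger. Its probe set 1429400_at read 10.19, 10.37, 9.90, 10.12 and 9.95 in L858R+T790M tumours and 9.06, 9.26, 9.10, 9.01 and 9.25 in T790M tumours. The groups did not overlap, and this probe set rose by 0.97 ± 0.10 (adjusted p = 0.001613, limma over all probe sets). The L858R tumours lay between them, at 9.44 to 9.62, and the FVB normals below both, at 8.61 to 8.86. A dimmer Clcn5 probe set, 1450787_at, rose by 0.92 ± 0.12 (adjusted p = 0.01707). The other Clcn5 probe sets differed by 0.36 ± 0.12 and 0.56 ± 0.17 and were not called, and the brightest of all, 1420295_x_at, overlapped between the groups.

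**Figure D1:**
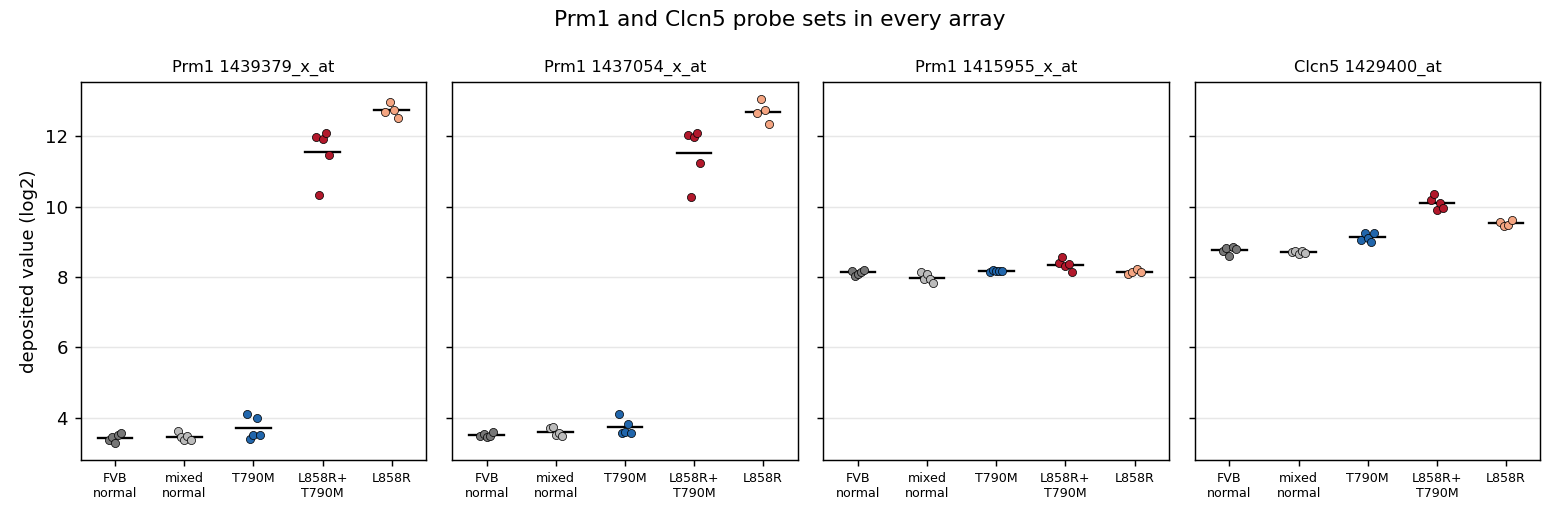
Deposited log2 value of 3 Prm1 probe sets and 1 Clcn5 probe set in each of the 24 arrays; points are arrays and black bars are group means. The first 2 Prm1 probe sets sit at 10.28 or above in every L858R+T790M and L858R tumour and at 4.10 or below in every other array, while the third Prm1 probe set stays between 7.83 and 8.56 throughout.

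Gpc6 encodes glypican 6, a heparan sulfate proteoglycan anchored to the cell surface. It read 8.58, 9.15, 8.51, 8.13 and 8.20 in L858R+T790M tumours and 7.21, 7.19, 6.69, 6.75 and 6.79 in T790M tumours. All L858R+T790M tumours lay above all T790M tumours and also above the FVB normals (7.11 to 7.69) and the L858R tumours (6.46 to 7.09). Gpc6 rose 3.01-fold, by 1.59 ± 0.19 (limma adjusted p = 0.01643). Its 5 probe sets differed by 0.15 to 1.59, all upward, 3 of them without overlap, and with their median in place of the brightest the call was lost (0.90, adjusted p = 0.192). The call was also lost without L858R+T790M replicate 1 (adjusted p = 0.0841) or without T790M replicate 4 (0.0705) or 5 (0.0789).

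Slc26a4 encodes pendrin, an exchanger that moves chloride, iodide and bicarbonate across the apical membrane of epithelia, the airway among them. It read 11.57, 10.46, 11.49, 11.89 and 10.58 in L858R+T790M tumours and 8.93, 8.81, 8.88, 8.87 and 8.79 in T790M tumours. The T790M tumours were closely alike, and the lowest L858R+T790M tumour still lay above them by more than their whole range. Slc26a4 rose 5.07-fold, by 2.34 ± 0.30 (limma adjusted p = 0.01643), on its only probe set. L858R tumours reached 10.27 to 11.64, within the range of the L858R+T790M group or close to it, and FVB normals 7.39 to 8.06, below every tumour. The call was lost without L858R+T790M replicate 1 (adjusted p = 0.0841) or 4 (0.0529), or without T790M replicate 1 (0.0656), 4 (0.0705) or 5 (0.0789). Of 20 ion transport genes of lung epithelium measured, Slc26a4 was the only one called (0.011% of all genes) or without overlap (1.03% of all genes). The median difference of the list was 0.16. Of 28 glypicans, syndecans and heparan sulfate enzymes, Gpc6 alone was called (0.011% of all genes). Sdc2, for syndecan 2, lay lower without overlap (1.23% of all genes). It stood at 7.80 to 8.57 against 8.59 to 8.83 (-0.58 ± 0.16, limma adjusted p = 0.292).

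The next genes higher in L858R+T790M were taken in order of p among those without overlap, and none passed the adjusted threshold in the main fit. Ccdc83 stood at 8.82, 8.42, 8.03, 8.80 and 7.91 against 7.33, 7.11, 7.07, 7.24 and 7.10, and FVB normals lay below both at 5.88 to 6.17. Its difference was 1.23 ± 0.18 (adjusted p = 0.0609 in limma over genes and 0.04401 over probe sets), and of its 3 probe sets 2 pointed up. Tubb2b, a beta tubulin, stood at 8.81, 9.21, 8.65, 8.80 and 8.82 against 7.45, 6.61, 7.38, 8.24 and 7.62, a difference of 1.40 ± 0.27. T790M replicate 4 was the nearest to the other genotype.

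Il4ra, the receptor chain shared by interleukins 4 and 13, stood at 9.54 to 10.41 against 8.65 to 9.44 (0.92 ± 0.18), with T790M replicate 2 the highest of its group. Lif, a cytokine of the interleukin 6 family, stood at 8.03 to 8.96 against 7.37 to 7.74 (0.88 ± 0.16). Cish, a feedback inhibitor of cytokine receptors that is induced by STAT5, stood at 10.26 to 10.41 against 9.52 to 9.99 (0.60 ± 0.11). The L858R+T790M tumours were closely alike in Cish and the L858R tumours covered a wider range, 10.09 to 10.67. Noct, a rhythmically expressed phosphatase, differed by 0.86 ± 0.15, Specc1 by 0.77 ± 0.14 and the matrix metalloproteinase gene Mmp19 by 0.61 ± 0.12. For Mmp19 the T790M tumours lay at or below the lower part of the range of FVB normals, 7.47 to 8.22, and the L858R+T790M tumours mostly inside it. The adjusted p of these genes and of Tubb2b lay between 0.1183 and 0.1296 in limma.

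**Figure D2:**
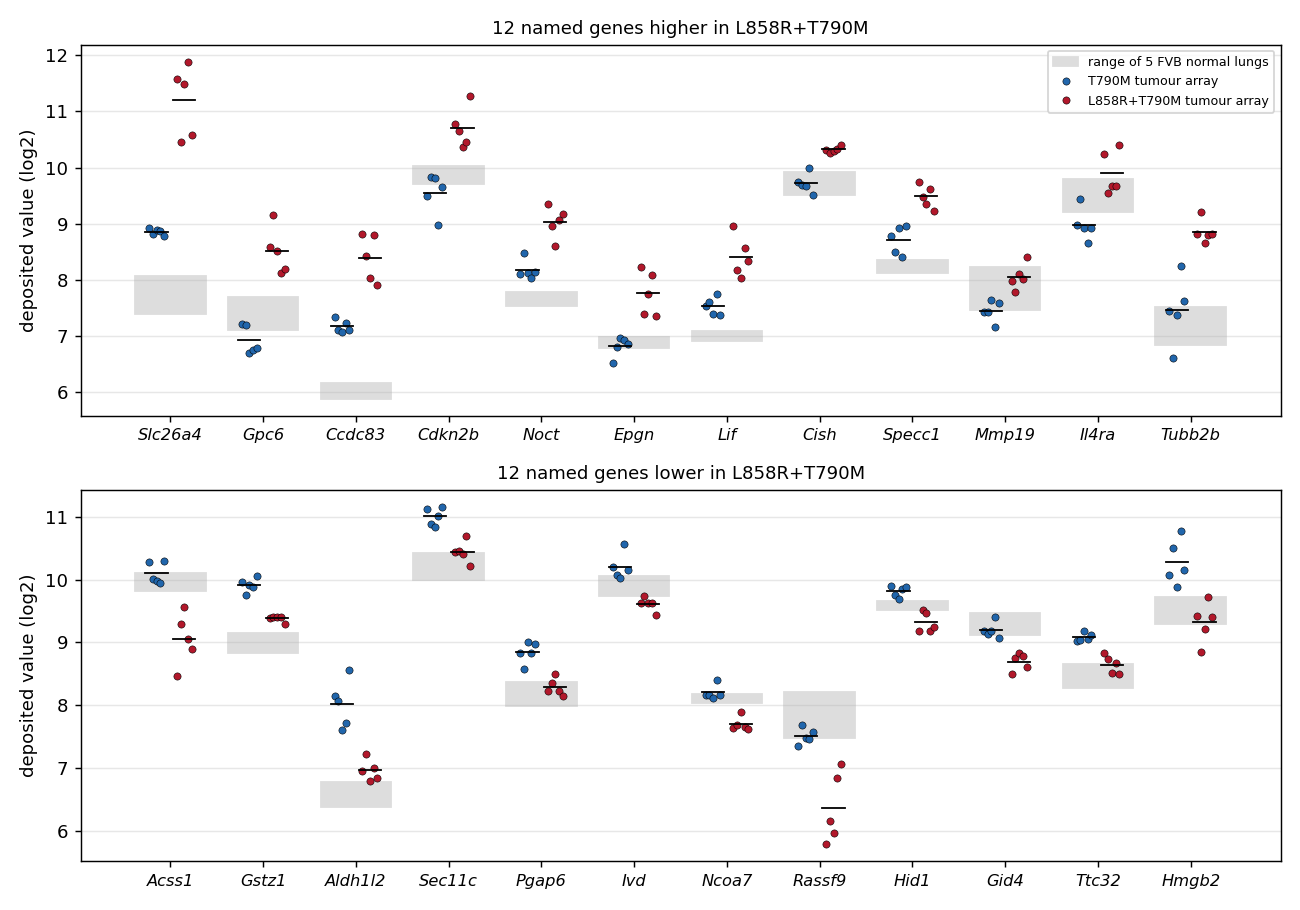
Deposited log2 value of the 24 genes named by rule in each L858R+T790M (red) and T790M (blue) tumour array, with group means as black bars and the range of the 5 FVB normal lungs as a grey box. No gene shows an overlap between red and blue points, since this was part of the rule. Gpc6 and Slc26a4 passed the adjusted threshold.

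The 12 named genes lower in L858R+T790M tumours include enzymes of acetate, folate and amino acid metabolism. Acss1, a mitochondrial enzyme that makes acetyl-CoA from acetate, stood at 8.47, 9.29, 9.57, 9.05 and 8.89 against 10.28, 10.01, 9.98, 9.95 and 10.29. The T790M tumours matched the FVB normals (9.82 to 10.10), and every L858R+T790M tumour lay below both. The difference was -1.05 ± 0.17, although 1 of its 3 probe sets pointed the other way (0.20). Aldh1l2, which oxidises 10-formyltetrahydrofolate in mitochondria, stood at 6.95, 7.23, 6.79, 7.0 and 6.85 against 8.14, 8.06, 7.60, 7.71 and 8.56 (-1.05 ± 0.18). Here the T790M tumours lay apart from the FVB normals (6.38 to 6.78) and from the L858R tumours (6.78 to 7.43), which sat with the L858R+T790M group. Ivd, an enzyme of leucine breakdown, stood at 9.43 to 9.74 against 10.02 to 10.57 (-0.60 ± 0.11). Gstz1, an enzyme of tyrosine breakdown, stood at 9.30 to 9.41 against 9.75 to 10.06 (-0.53 ± 0.09).

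The other genes of this direction have varied roles. Rassf9 showed the largest difference, at 5.79 to 7.06 against 7.35 to 7.69 (-1.15 ± 0.22). The chromatin protein gene Hmgb2, high in dividing cells, stood at 8.85 to 9.72 against 9.89 to 10.77 (-0.96 ± 0.19), and FVB normals lay at 9.29 to 9.72. Sec11c, a signal peptidase subunit, differed by -0.56 ± 0.10, and Pgap6 by -0.56 ± 0.10, with 2 of its 4 probe sets pointing down. Ncoa7, a nuclear receptor coactivator, Hid1 and Gid4, a subunit of a ubiquitin ligase, each differed by -0.50, and Ttc32 by -0.44. Of the 2 probe sets of Ttc32 1 pointed down, and the other differed by 0.06. The limma adjusted p of the 12 genes lay between 0.1153 and 0.1296, so none was called. In the fit to 24 arrays it lay between 0.001009 and 0.01003 for 11 of them and was 0.0911 for Ncoa7.

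Most measured ligands of the EGFR family lay higher in L858R+T790M tumours. Of these 9 ligands 8 differed upward and 1 downward, 5 upward with an unadjusted p under 0.05 (5.07% of all genes). Of the 9, 2 were without overlap (1.03% of all genes) and 0 were called. The 5 include the dim gene Nrg1, for a ligand of ERBB3 and ERBB4. Without T790M replicate 2 there were 4 without overlap and 2 were called, and without L858R+T790M replicate 1 or 2 there were 3 without overlap. Over all genes the counts higher without overlap were then 462, 217 and 361, beside 188 with all arrays. The differences of the 9 ligands ran from -0.48 to 3.13. Their median was 0.42, beside 0.01 over all genes. It was 0.19 with each gene set to the median of its probe sets and 0.95 with dim genes left out. Epiregulin (Ereg), a ligand that also binds ERBB4, read 12.45, 11.45, 10.87, 11.73 and 11.91 in L858R+T790M tumours and 8.29, 10.19, 9.63, 5.74 and 8.91 in T790M tumours. The groups did not overlap, but T790M tumours spread widely, from the level of FVB normals (4.95 to 6.09) in replicate 4 to 10.19 in replicate 2. The difference, 3.13 ± 0.63 or 8.75-fold, was the highest of all genes tested and was not called (limma adjusted p = 0.134), and the fit to 24 arrays gave 0.0055. Without T790M replicate 2 Ereg was called (3.54, adjusted p = 0.0415).

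Epigen (Epgn), a low-affinity ligand, read 8.23, 7.39, 7.75, 8.08 and 7.36 against 6.52, 6.80, 6.97, 6.92 and 6.86. The T790M tumours lay within or below the range of FVB normals (6.79 to 6.98), and every L858R+T790M tumour above it. The difference was 0.95 ± 0.17 (limma adjusted p = 0.118). Hbegf, for the heparin-binding ligand, read 10.35, 9.89, 10.38, 10.30 and 10.38 against 9.02, 10.03, 9.07, 9.11 and 8.67. A single pair of arrays overlapped, T790M replicate 2 above L858R+T790M replicate 2, and the difference was 1.08 ± 0.21 (limma adjusted p = 0.130). Transforming growth factor alpha (Tgfa) stood at 9.33 to 10.01 against 8.99 to 9.64 (0.42 ± 0.16) and betacellulin (Btc) at 8.33 to 9.44 against 7.68 to 8.94 (0.47 ± 0.25), each with overlap. Neuregulin 1 (Nrg1), a ligand of ERBB3 and ERBB4, was dim in both groups, at 4.71 to 5.02 against 4.52 to 4.77.

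**Figure D3:**
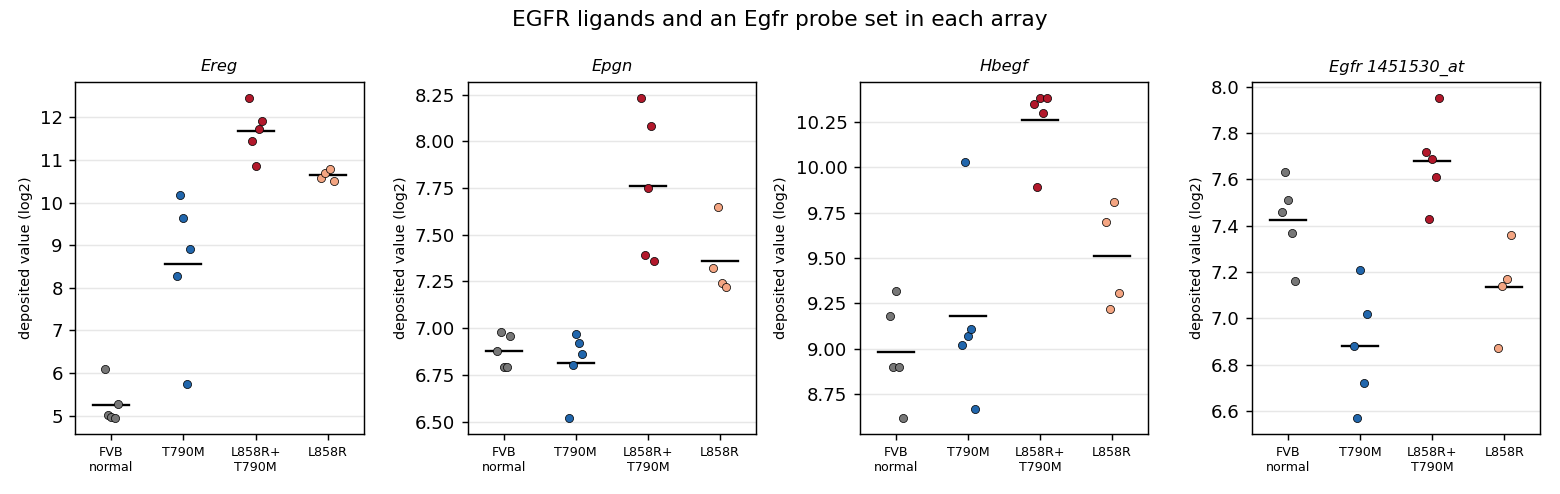
Deposited log2 value of the ligand genes Ereg, Epgn and Hbegf and of the Egfr probe set 1451530_at in FVB normal lungs and in tumours of 3 genotypes; points are arrays, black bars are group means, and the vertical scales differ and do not start at 0. Red L858R+T790M points lie above blue T790M points except for 1 pair of arrays in Hbegf.

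Of 18 receptors and regulators of the ERBB family, Egfr alone showed no overlap (1.03% of all genes), and the median difference was 0.17. An unadjusted p under 0.05 was reached by 4, all higher (5.07% of all genes). Leaving out 1 tumour of the genotypes compared gave 1 to 4 higher. Egfr has 7 probe sets. The brightest, 1460420_a_at, read 9.03, 9.12, 9.13, 9.09 and 9.16 in L858R+T790M and 8.85, 8.75, 8.90, 8.81 and 8.81 in T790M tumours. The difference was small, 0.28 ± 0.07 (limma adjusted p = 0.195), with T790M tumours below the FVB normals (9.0 to 9.20) and L858R+T790M tumours inside their range. Probe set 1451530_at read 7.43 to 7.95 against 6.57 to 7.21 (0.80 ± 0.13, adjusted p = 0.0925 in limma over all probe sets). The other 5 Egfr probe sets overlapped and differed by -0.04 to 0.23. Erbb2, the partner receptor without a ligand, differed by 0.08 ± 0.10. Errfi1, an EGFR inhibitor induced by EGFR signalling, stood at 12.16 to 13.00 against 11.30 to 12.37 (0.53 ± 0.21). Rhbdf1, which governs the shedding of EGFR ligands, stood at 10.14 to 10.59 against 10.49 to 10.89 (-0.31 ± 0.15).

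The 19 measured genes of ERK output, feedback phosphatases, Sprouty genes and ERK-induced transcription factors among them, showed 0 calls and 0 genes without overlap. At an unadjusted p under 0.05, 2 were higher (5.07% of all genes). Without T790M replicate 2 these counts became 7 at that p and 2 higher without overlap. Over all genes they were then 975 and 462. With array weights 1 of the 19 was called higher, beside 150 of all genes. Their median difference was 0.04. The mean of this list was 10.20 to 10.49 in L858R+T790M and 9.99 to 10.63 in T790M tumours. Both ranges lay above the FVB normals (9.52 to 9.69).

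Most genes of DNA replication and mitosis lay lower in L858R+T790M tumours, and 3 genes of CDK inhibitors, which stop the cell cycle, lay higher. Cdkn2b encodes p15, which blocks CDK4 and CDK6. It read 10.78, 10.66, 10.36, 10.46 and 11.28 against 9.49, 9.84, 9.82, 8.98 and 9.65, with no overlap, a difference of 1.15 ± 0.19 and an adjusted p of 0.1153 in limma. The L858R tumours lay with the L858R+T790M tumours (10.31 to 10.76), and the FVB normals (9.70 to 10.03) overlapped the upper T790M tumours. Cdkn1a, for p21, the CDK inhibitor induced by p53, read 12.02, 11.60, 11.96, 11.99 and 12.11 against 11.35, 11.27, 10.82, 11.36 and 11.05 (0.77 ± 0.16, limma adjusted p = 0.162), and its other probe set showed no overlap either. Cdkn2a, for p16 and ARF, was dim, at 5.66 to 6.29 against 5.02 to 5.64 (0.61 ± 0.16), also without overlap. These were the only 3 of 17 CDK inhibitors and p53 targets without overlap, beside 1.03% of all genes higher. Of the 17, 10 differed upward and 7 downward, from -0.93 to 1.15. The median difference of that list was 0.14, and the p53 target Mdm2 stood at 10.75 to 11.03 against 10.67 to 10.83 (0.14 ± 0.09).

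Of 35 DNA replication genes 33 differed downward, 24 had an unadjusted p under 0.05, beside 5.17% of all genes, and 11 showed no overlap, beside 1.23% of all genes. None was called, and the median difference was -0.56. The count without overlap was 7 with arrays centred on their medians and 9 after quantile normalization. It was 11 to 21 with 1 tumour left out, where it could not fall. The 21 came without L858R+T790M replicate 4, where the count lower over all genes rose from 223 to 414. Without T790M replicate 3 it was 17, and 344 over all genes. The Mcm genes encode the ring-shaped helicase that opens DNA for replication. Mcm2 stood at 9.58, 9.45, 9.77, 10.09 and 9.27 against 10.32, 10.55, 10.12, 11.11 and 10.48 (-0.88 ± 0.28). Mcm5 stood at 8.66, 7.66, 9.35, 9.36 and 8.49 against 10.09, 9.40, 9.49, 10.50 and 9.98 (-1.19 ± 0.43). In both genes the groups were separate but close at the edge, since L858R+T790M replicate 4 nearly met the lowest T790M tumour. The 3 probe sets of Mcm5 differed by -1.19 to 0.0, and 1 of them was without overlap. Mcm3 differed by -0.93 ± 0.32, Mcm4 by -0.83 ± 0.25 and Mcm6, which overlapped, by -1.23 ± 0.32.

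Genes that supply the fork and its building blocks also lay lower. Pcna, the sliding clamp, stood at 11.00 to 11.91 against 11.92 to 12.43 (-0.56 ± 0.17). Rrm2, the small subunit of ribonucleotide reductase, stood at 7.27 to 8.92 against 9.12 to 9.75 (-1.14 ± 0.39), and FVB normals at 7.05 to 8.10. Uhrf1, which carries DNA methylation through replication, stood at 6.80 to 7.60 against 7.73 to 9.31 (-1.21 ± 0.35). For Rrm2 L858R+T790M replicate 2 lay inside the range of normal lung, and the other 4 tumours of its group and all T790M tumours lay above it. The nucleotide enzymes Tk1 (-0.74 ± 0.23) and Dut (-0.73 ± 0.22), the polymerase gene Pole (-0.39 ± 0.17) and the single-strand binding gene Rpa2 (-0.30 ± 0.11) completed the 11. The adjusted p of the 11 lay between 0.315 and 0.462 in limma.

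The promoters of a few of these genes show the elements through which division genes are known to be switched. E2F factors bind the sequence TTTGGCGC and its relative TTTCCCGC in replication genes, and the element TTTGAA, called CHR, is bound by the DREAM and MuvB complexes in mitosis genes. RefSeq promoters of build GRCm38.p6, from 250 bases before to 50 after the start of a gene, were found for 31 DNA replication genes and searched on both strands for these letters, each motif counted on its own whether or not its match overlapped another. TTTGGCGC lay in 7 of the 31 (22.6%) and in 0.585% of all 27025 promoters of the table, and TTTCCCGC in 6 (19.4%) and 1.24%. Of those 7 genes 2 were among the 11 without overlap, and of the 6 genes 1 was. The Mcm3 promoter (chr1:20820263-20820562, minus strand), with TTTGGCGC in capitals 38 bases after the start, and the Mcm5 promoter (chr8:75109259-75109558, plus strand), with its reverse complement in capitals at position -149 from the start, are shown because both genes were among the 11.
Mcm3: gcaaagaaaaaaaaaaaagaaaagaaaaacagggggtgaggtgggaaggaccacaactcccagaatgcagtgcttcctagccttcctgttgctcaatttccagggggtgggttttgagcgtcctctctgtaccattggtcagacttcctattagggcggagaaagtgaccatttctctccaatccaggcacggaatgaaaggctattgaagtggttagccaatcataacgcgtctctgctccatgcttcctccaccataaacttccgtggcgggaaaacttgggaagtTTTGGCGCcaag
Mcm5: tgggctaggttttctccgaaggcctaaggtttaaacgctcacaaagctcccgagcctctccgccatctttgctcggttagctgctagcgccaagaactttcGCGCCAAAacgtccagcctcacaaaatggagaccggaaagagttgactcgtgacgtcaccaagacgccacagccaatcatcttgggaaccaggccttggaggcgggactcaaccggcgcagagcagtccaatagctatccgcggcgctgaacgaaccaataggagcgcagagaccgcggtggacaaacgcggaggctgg
Such a match describes the letters of the window and does not show that a factor was bound in these tumours.

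Of 34 mitosis genes 33 differed downward and 17 had an unadjusted p under 0.05 (5.17% of all genes), with a median difference of -0.66, but 3 showed no overlap (1.23% of all genes) and 0 were called. The 17 became 6 without L858R+T790M replicate 2 or without T790M replicate 4, 9 without L858R+T790M replicate 5 and 10 without L858R+T790M replicate 1. The count of 3 became 0 with arrays centred on their medians or with the median over probe sets, and 2 after quantile normalization. It became 18 without L858R+T790M replicate 4, 6 without T790M replicate 2 and 5 without T790M replicate 3. Over all genes the counts lower were then 414, 476 and 344, beside 223 with all arrays. Cenpw, a kinetochore gene, stood at 6.33, 6.02, 5.72, 6.55 and 5.96 against 6.63, 7.31, 7.01, 8.36 and 7.04 (-1.15 ± 0.26, limma adjusted p = 0.183). Cdc20, the activator of the anaphase-promoting complex, stood at 7.94 to 9.25 against 9.30 to 9.80 (-1.0 ± 0.38). The spindle checkpoint kinase gene Bub1 stood at 6.25 to 7.74 against 7.78 to 9.64 (-1.25 ± 0.49). Its 2 probe sets differed by -1.25 and -0.14, and 1 of them was without overlap. In Cenpw and Bub1 T790M replicate 4 was the highest array by more than 1, and in Cdc20 it led by less.

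The common markers of dividing cells overlapped between the groups. Mki67 stood at 8.90, 6.96, 8.59, 8.96 and 8.74 against 9.03, 8.60, 8.69, 10.01 and 9.24 (-0.68 ± 0.41). Top2a, for topoisomerase II alpha, stood at 7.59 to 9.25 against 9.14 to 10.48 (-0.98 ± 0.40), and Cdk1 at 7.28 to 9.24 against 9.07 to 10.12 (-1.17 ± 0.40). The 3 probe sets of Top2a differed by -0.98 to 0.03. The lowest Mki67 value, in L858R+T790M replicate 2, equalled the lowest FVB normal. Of 20 histone and chromatin genes of dividing cells 19 differed downward, 7 at an unadjusted p under 0.05 (5.17% of all genes). None was called, and the median difference was -0.30. The 7 became 3 without L858R+T790M replicate 5 and 4 without T790M replicate 4. No overlap was seen for 3 (1.23% of all genes), Hmgb2, Dek (-0.26 ± 0.08) and the condensin gene Ncaph (-0.60 ± 0.23).

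TTTGAA lay in 21 of 29 mitosis promoters in the table (72.4%) and in 20.2% of all promoters. Of those 21 genes 2 were without overlap. The promoters of Cdc20 (chr4:118437294-118437593, minus strand, TTTGAA at position -18 from the start) and Cenpw (chr10:30200491-30200790, minus strand, its reverse complement at position -25) are shown with the match in capitals, since these genes were without overlap.
Cdc20: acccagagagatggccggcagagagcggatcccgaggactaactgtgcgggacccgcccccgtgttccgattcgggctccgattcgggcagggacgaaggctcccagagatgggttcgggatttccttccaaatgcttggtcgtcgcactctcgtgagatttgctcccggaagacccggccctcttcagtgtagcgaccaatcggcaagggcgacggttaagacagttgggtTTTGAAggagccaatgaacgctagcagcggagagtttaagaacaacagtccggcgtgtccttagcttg
Cenpw: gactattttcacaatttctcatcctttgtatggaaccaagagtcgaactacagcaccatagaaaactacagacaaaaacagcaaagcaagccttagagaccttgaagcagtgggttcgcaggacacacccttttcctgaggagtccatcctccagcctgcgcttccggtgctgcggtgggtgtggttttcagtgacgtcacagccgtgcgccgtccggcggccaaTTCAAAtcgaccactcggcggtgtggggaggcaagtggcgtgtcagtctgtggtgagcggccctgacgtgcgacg

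Averaged over a list, the arrays of both genotypes ran as follows. The DNA replication mean was 8.32, 8.04, 8.46, 8.61 and 8.17 in L858R+T790M and 8.84, 8.77, 8.60, 9.30 and 8.86 in T790M tumours, and 7.91 to 8.14 in FVB normals. Only L858R+T790M replicate 4 reached the lowest T790M tumour, and replicate 2 lay within the range of normal lung. The mitosis mean was 6.86 to 7.91 against 7.77 to 8.65. L858R tumours spread over both groups, from 8.04 to 8.98 for replication and from 7.20 to 8.58 for mitosis. With the mean of the endothelial list as a covariate the median difference of the replication list was -0.56 and with the sex score it was -0.53.

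**Figure D4:**
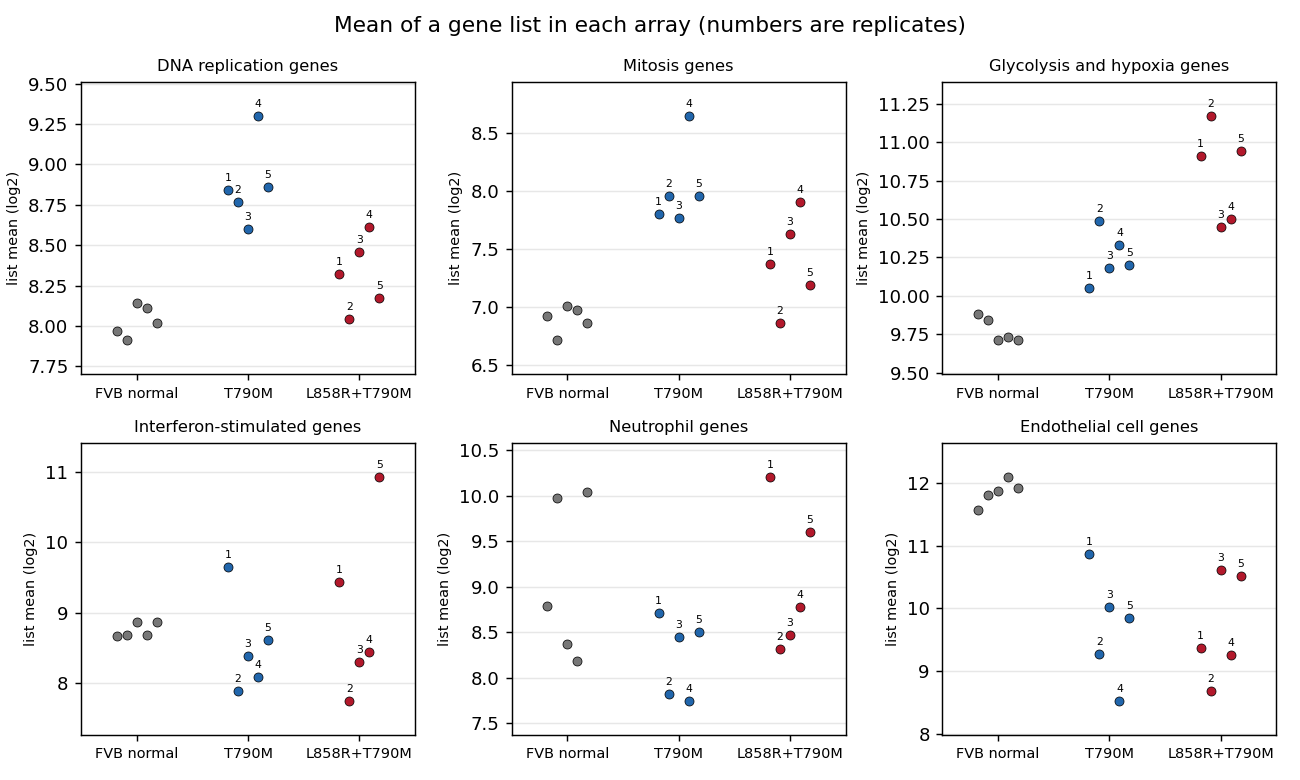
Mean log2 level of 6 gene lists in each FVB normal lung and in each T790M and L858R+T790M tumour; numbers beside points are replicates, and vertical scales differ and do not start at 0. T790M tumours sit high for DNA replication and mitosis, L858R+T790M tumours for glycolysis and hypoxia, and both genotypes cover much the same range for endothelial genes.

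Glycolysis and hypoxia genes were higher in L858R+T790M tumours. Of 26 measured members 25 differed upward, 12 had an unadjusted p under 0.05 (5.07% of all genes), 5 showed no overlap (1.03% of all genes) and 0 were called, and the median difference was 0.49. The 12 became 7 without T790M replicate 1 and 8 without L858R+T790M replicate 2. Leaving out 1 tumour, which cannot lower the count, gave 5 to 9 without overlap. The 9 came without L858R+T790M replicate 3, where the count higher over all genes rose from 188 to 296. Pgk1, for phosphoglycerate kinase, stood at 13.27, 13.46, 13.01, 13.00 and 13.26 against 12.61, 12.67, 12.48, 12.86 and 12.71 (0.53 ± 0.19), and all 3 of its probe sets were without overlap. Slc16a3, the lactate exporter MCT4, stood at 8.13, 7.42, 7.20, 7.15 and 7.50 against 6.56, 6.46, 6.42, 7.11 and 6.63 (0.84 ± 0.25). Here T790M replicate 4 almost met L858R+T790M replicate 4, and the other T790M tumours lay at the level of FVB normals (6.54 to 6.99).

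Aldoa, an aldolase, stood at 13.07 to 13.54 against 12.72 to 13.00 (0.41 ± 0.15). P4ha2, which hydroxylates collagen and is induced by hypoxia, stood at 10.31 to 11.05 against 9.62 to 10.15 (0.69 ± 0.21), and Egln1, an oxygen sensor that marks HIF for destruction, at 10.89 to 11.17 against 9.99 to 10.82 (0.49 ± 0.19). The adjusted p of these 5 genes lay between 0.314 and 0.425 in limma. Hexokinase 2 (Hk2, 0.58 ± 0.31) and lactate dehydrogenase A (Ldha, 0.23 ± 0.10) overlapped. The list mean was 10.91, 11.17, 10.45, 10.50 and 10.94 in L858R+T790M and 10.05, 10.49, 10.18, 10.33 and 10.20 in T790M tumours. L858R+T790M replicate 2 was the highest for this list and the lowest for the division lists. The L858R tumours ranged over nearly the whole span, from 10.05 to 11.13.

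The ATF4 list, enzymes and transporters of amino acid and folate metabolism that ATF4 switches on under stress, was slightly lower in L858R+T790M tumours. Of 35 members 7 were lower (5.17% of all genes) and 1 higher (5.07% of all genes) at an unadjusted p under 0.05. Lower without overlap were 2 (1.23% of all genes), 0 were called, and the median difference was -0.13. The 7 became 4 without L858R+T790M replicate 1 or 3, and the 2 became 4 when L858R+T790M replicate 2 or T790M replicate 3 was dropped. Over all genes the counts lower without overlap were then 448 and 344, beside 223 with all arrays. Asns, which makes asparagine, stood at 9.16, 9.18, 9.07, 9.10 and 8.98 against 10.29, 9.38, 9.82, 10.27 and 10.12 (-0.88 ± 0.19, limma adjusted p = 0.162), with both probe sets without overlap. The L858R+T790M tumours were alike and lay with the FVB normals (8.81 to 9.15), and T790M replicate 2 came nearest to them. Aldh1l2 was described above. Chac1, which degrades glutathione, overlapped at 7.03 to 7.53 against 7.23 to 8.41 (-0.49 ± 0.19).

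The element TGATGNAAN, where C/EBP and ATF4 pair on stress genes, lay in 12 of 30 ATF4-list promoters (40.0%) and in 4.5% of all promoters. Of those 12 genes 1 was without overlap. The Asns promoter (chr6:7693160-7693459, minus strand) is shown because Asns was without overlap and holds the element in capitals at position -23 from the start.
Asns: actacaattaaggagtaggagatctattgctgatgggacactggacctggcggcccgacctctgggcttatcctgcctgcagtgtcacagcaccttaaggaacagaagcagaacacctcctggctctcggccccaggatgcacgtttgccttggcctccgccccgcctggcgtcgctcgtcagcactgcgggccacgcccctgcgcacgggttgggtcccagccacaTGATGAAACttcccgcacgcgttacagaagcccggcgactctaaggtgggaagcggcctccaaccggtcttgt

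Of 28 glutathione and NRF2 target genes 14 differed in each direction. Gsta3, a glutathione transferase strongly expressed in normal lung (10.67 to 11.51 in FVB normals), was the only one without overlap (1.23% of all genes). It stood at 8.59, 9.86, 9.43, 8.90 and 8.78 against 10.78, 10.43, 10.68, 10.00 and 10.39 (-1.34 ± 0.29, limma adjusted p = 0.162). The T790M tumours reached only the lower end of the FVB normals or lay below it, with means of 10.46 and 11.18. Every L858R+T790M tumour lay below both. The L858R tumours, at 8.46 to 9.96, sat with the L858R+T790M group. The 13 club cell genes, which mark secretory cells of the airway, all differed downward with a median of -0.50, 0 of them without overlap. Their list mean was 8.94 to 10.48 in L858R+T790M and 9.02 to 11.83 in T790M tumours, with T790M replicates 1 (11.83) and 5 (11.48) the highest. Their part in the Gsta3 difference was not tested. None of 24 fatty acid and cholesterol synthesis genes was without overlap, and their median difference was 0.17.

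**Figure D5:**
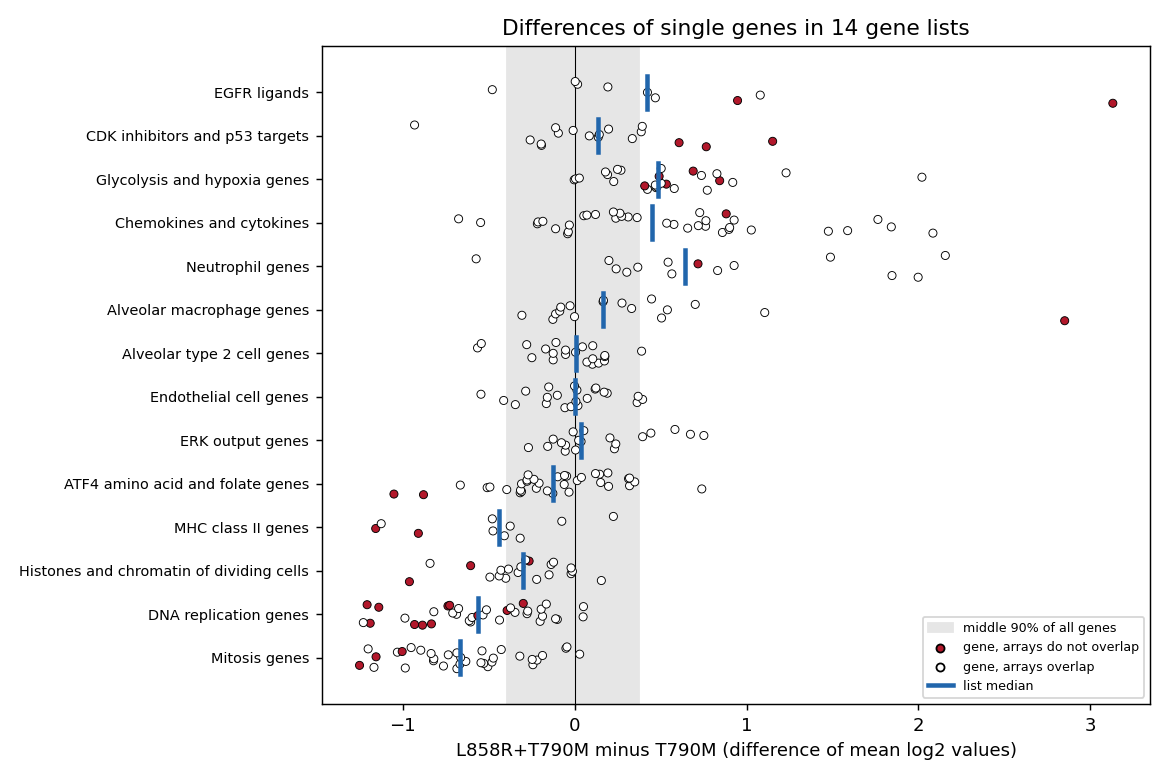
Difference of L858R+T790M minus T790M mean log2 levels for every measured gene of 14 lists; each circle is a gene, red where the arrays of both genotypes do not overlap, blue bars are list medians and the grey band holds the middle 90% of all genes, from -0.39 to 0.38. The mitosis (-0.66), DNA replication (-0.56) and MHC class II (-0.44) medians lie left of the band. Right of it lie the medians of neutrophil genes (0.64), glycolysis (0.49), chemokines and cytokines (0.45) and EGFR ligands (0.42). Alveolar type 2 (0.01) and endothelial genes (0.00) are centred.

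Markers of alveolar type 2 cells were present in all tumours and had a median difference near 0. Alveolar type 2 cells make surfactant and are a common origin of such tumours in mice. Of their 21 genes 0 were called and 0 were without overlap, with a median difference of 0.01, and the list mean was 12.71 to 13.04 against 12.61 to 13.26. FVB normals lay lower, at 12.24 to 12.41. Nkx2-1, the transcription factor of lung identity, stood at 8.09 to 8.67 against 7.91 to 8.59 (0.18 ± 0.14). Of 12 alveolar type 1 genes 11 differed upward, with a median of 0.44. Of these Cldn18, a tight junction gene of alveolar cells, was alone without overlap (1.03% of all genes). It stood at 13.11 to 13.50 against 12.21 to 12.97 (0.58 ± 0.13, limma adjusted p = 0.173). The type 1 median ranged from 0.16 to 0.64 when 1 tumour was left out. The ciliated cell list (13 genes) had a median of -0.32 and 0 genes without overlap, and Scgb1a1, the main secretory product of club cells, read 11.99 or more in all 10 tumours.

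In whole nodules, fewer cells of a type and less RNA per cell cannot be told apart. Alveolar macrophages take up surfactant and inhaled particles. Of 17 of their genes 5 were higher at an unadjusted p under 0.05 (5.07% of all genes) and 1, the scavenger receptor gene Marco, was without overlap (1.03% of all genes). The 5 became 1 without L858R+T790M replicate 1 or T790M replicate 4, and 2 when T790M replicate 1 or L858R+T790M replicate 4 or 5 was dropped, or with the 10 arrays compared. The median difference of the list was 0.17, and -0.03 to 0.44 with 1 tumour left out, the lowest without L858R+T790M replicate 4 and the highest without L858R+T790M replicate 2. Marco read 12.11, 9.50, 9.31, 9.97 and 11.97 in L858R+T790M tumours and 7.46, 7.60, 8.81, 7.94 and 6.80 in T790M tumours (2.85 ± 0.63, 7.21-fold, limma adjusted p = 0.173). L858R+T790M replicates 1 and 5 were far above the others of their group, and the L858R tumours also lay above the T790M tumours, at 9.59 to 12.07. The list mean overlapped, at 9.24 to 10.52 against 9.50 to 10.01, with L858R+T790M replicate 2 the lowest of all 10. Neither the 16 genes of lipid-associated and activated macrophages (median 0.25) nor the 13 of interstitial macrophages and monocytes (0.06) held a gene without overlap.

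Neutrophil and inflammatory genes were high in 2 of the 5 L858R+T790M tumours. The neutrophil list of 14 genes had a median difference of 0.64, with 6 genes higher at an unadjusted p under 0.05 (5.07% of all genes) and 0 called. The 6 became 0 without T790M replicate 2 or 4, 1 if L858R+T790M replicate 1 or 5 was dropped, 2 without T790M replicate 5 and 3 without T790M replicate 3, and 2 with the 10 arrays compared. The list mean was 10.21, 8.31, 8.47, 8.78 and 9.60 against 8.71, 7.82, 8.45, 7.74 and 8.50, and FVB normals covered 8.18 to 10.04. S100a8, an abundant neutrophil protein gene, stood at 13.88, 8.99, 9.69, 10.37 and 12.08 against 10.88, 8.33, 8.91, 7.18 and 9.72 (2.00 ± 1.01). Replicates 1 and 5 stood out in both. Of the list only the granule gene Ngp was without overlap (1.03% of all genes). Its difference (0.72 ± 0.33) came mainly from replicate 1, at 9.30 beside 7.17 to 7.41 in the other 4.

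The neutrophil-attracting chemokine gene Cxcl2 repeated this order, at 10.26, 6.94, 6.25, 6.91 and 10.78 against 6.28, 5.72, 7.06, 5.84 and 5.82 (2.08 ± 0.76, limma adjusted p = 0.411). Cxcl3 was high in replicate 1 alone (10.13). Over all 36 chemokines and cytokines the median difference was 0.45, 27 differed upward, and Lif alone was without overlap (1.03% of all genes). Interferon-stimulated genes followed single tumours too. Their list mean was 9.43, 7.74, 8.29, 8.44 and 10.93 against 9.65, 7.89, 8.38, 8.08 and 8.61, so that L858R+T790M replicates 5 and 1 and T790M replicate 1 were high. Of these 32 genes 0 reached an unadjusted p under 0.05, with a median of 0.41.

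MHC class II genes, which present antigen on macrophages, dendritic cells, B cells and alveolar type 2 cells, were lower in L858R+T790M tumours. Of 10 genes 9 differed downward, 5 at an unadjusted p under 0.05 (5.17% of all genes) and 2 without overlap (1.23% of all genes), and 0 were called. With 1 tumour left out 2 to 7 reached that p, the lowest count when T790M replicate 1, T790M replicate 5 or L858R+T790M replicate 2 was dropped. With T790M replicate 4 or L858R+T790M replicate 1 dropped 3 did, and with 1 weight per group 1 did. Without T790M replicate 2 there were 5 without overlap, and the count lower over all genes rose from 223 to 476. H2-Eb1 stood at 9.57, 9.71, 9.76, 9.82 and 9.42 against 10.67, 10.13, 10.36, 11.15 and 10.51 (-0.91 ± 0.22, limma adjusted p = 0.210). H2-DMb2, part of the complex that loads peptides, stood at 8.50 to 9.11 against 9.12 to 10.80 (-1.16 ± 0.34). T790M replicate 2 was the lowest T790M tumour for both genes. Cd74, the invariant chain, is far brighter on the array and differed by -0.07 ± 0.10. The B cell and plasma cell list, whose cells carry MHC class II, had a median of -0.13 and means of 7.86 to 8.81 against 7.81 to 9.37, with T790M replicates 1 and 5 high. Its part in the class II values was not tested. None of 20 T cell and NK cell genes was without overlap (median 0.04).

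None of 22 endothelial, 20 fibroblast and matrix, 12 smooth muscle and pericyte and 7 mesothelial genes was without overlap, with medians of 0.00, 0.11, -0.12 and 0.48. The endothelial mean was 9.37, 8.68, 10.61, 9.26 and 10.51 against 10.87, 9.27, 10.02, 8.52 and 9.84, below all FVB normals (11.57 to 12.10). Both genotypes spread over nearly the same range. Adipose and cardiac muscle genes had the lowest median of all 35 lists, -0.91, and it was -0.23 without T790M replicate 1 and -0.81 without T790M replicate 5. The list means of these were 9.76 and 7.91, beside 6.04 to 7.03 in the other 8 tumours. Adipoq, the adipocyte hormone gene, read 7.91 and 6.09 in these and 4.23 to 5.00 in the other 8.

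Genes of other lineages and imprinted genes varied from tumour to tumour. Of 26 gut, liver and oncofetal genes only Foxa1, a pioneer transcription factor of endoderm, was without overlap (1.23% of all genes). It stood at 10.12 to 10.75 against 10.95 to 11.46 (-0.67 ± 0.18, limma adjusted p = 0.274). Alpha-fetoprotein (Afp) stood at 10.11, 10.88, 9.84, 10.10 and 9.11 against 7.50, 11.01, 7.95, 9.63 and 8.13 (1.16 ± 0.56). Both groups reached about 11 in replicate 2, and FVB normals lay at 4.82 to 6.27. The imprinted gene Dlk1 stood at 12.97, 14.22, 13.77, 13.35 and 10.58 against 8.13, 12.12, 11.94, 14.13 and 8.99 (1.92 ± 1.18). Meg3, the noncoding RNA of the other parental allele at that locus, stood at 12.43 to 13.97 against 13.21 to 13.87 (-0.40 ± 0.29). All tumours lay far above normal lung in Meg3 (9.09 to 9.45 in FVB normals). None of 25 keratin and epithelial junction genes was without overlap, with a median of 0.02.

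Across all 18193 genes the first principal component of the 10 arrays held 39.4% of the variance and ran within both genotypes. T790M replicates 4 (48.9) and 2 (38.8) and L858R+T790M replicate 2 (32.4) lay at one end, and L858R+T790M replicate 5 (-42.4) and T790M replicate 1 (-33.7) at the other. The endothelial means of the first 3 were 8.52, 9.27 and 8.68, at the low end of the 10. The component after it held 19.9%, with the L858R+T790M tumours at 5.9 or below and 4 T790M tumours at 17.5 or above. T790M replicate 2, at -11.9, lay among the L858R+T790M tumours, and leaving it out raised the calls to 19 higher and 8 lower.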

How the data were processed

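RNA of 24 mouse lung samples was measured with 1 Affymetrix array each. The authors deposited log2 values, 1 per probe set, and the submitters' processing notes name RMA as the tool. Its version is not given in the sources used here, and RMA compresses differences of dim probe sets. Of 45101 probe sets, 34945 had 1 annotated gene, 932 several and 9160 none, beside 64 control probe sets; those with 1 gene gave 18193 genes, each represented by its probe set of highest mean over all arrays. Arrays hold no counts, so their number limits the precision.

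Group means of the 14 tumour arrays entered limma (version 3.58.1, R 4.3.3) with trended eBayes, 11 residual degrees of freedom, two-sided p-values and Benjamini-Hochberg adjustment. The spread was taken from tumours because normal lungs vary less. The 12 genes named in each direction were called genes without overlap, with places filled by p among genes without overlap; members of 35 lists (678 of 735 entries measured) could be named too. The members and lists were chosen with earlier results of these data known, so lists are described by counts and medians and not tested. Alternatives changed the arrays in the fit, weights, scaling, probe set rule, filter on dim genes, thresholds, covariates, the replicate block and single arrays. The fit was tested on simulated data. Replicate numbers were checked for pairing, and deviations of same-numbered tumours correlated at 0.003, 0.44, 0.223, 0.208 and 0.231 from replicate 1 to replicate 5. L858R+T790M replicates 2 and 4 correlated best with the T790M tumour of the same number, and the others with another. Such mixed values do not settle whether the numbers pair the samples, and the main fit left them unpaired.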

Additional observations from a re-analysis of the deposited data

Results flagged for a closer look

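Among 248 groups of 5 arrays (124 genes, probe sets and list means in both genotypes), 15 had an array far from the other 4, with a gap to the nearest of more than 0.71 of the whole range. Chance flags about 1 in 20 groups. T790M replicate 4 was such an array for Bub1 (9.64, others 7.78 to 8.01), Ncaph (9.36, others 7.97 to 8.32), the mitosis list mean (8.65, others 7.77 to 7.96), Ncoa7 (8.40, others 8.12 to 8.17) and the mean of the glypican and syndecan list (8.62, others 8.77 to 8.79). T790M replicate 2 was high for Noct (8.48, others 8.03 to 8.14), and T790M replicate 1 was low for Clcn5 probe set 1441831_x_at (7.20, others 7.71 to 7.91).

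Among L858R+T790M tumours, replicate 2 was low for Mki67 (6.96, others 8.59 to 8.96) and Hbegf (9.89, others 10.30 to 10.38). Replicate 5 was low for Tk1 (7.94, others 8.47 to 8.60), Gstz1 (9.30, others 9.39 to 9.41) and the alveolar type 2 list mean (12.71, others 12.98 to 13.04). Replicate 3 was high for Ncoa7 (7.90, others 7.63 to 7.69) and the ciliated cell list mean (7.34, others 6.70 to 6.82), and replicate 1 for Ngp (9.30, others 7.17 to 7.41).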

How the results depend on the processing

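Against 2 genes called higher and 0 lower, limma called 139 and 150 with all 24 arrays, 23 and 17 with 1 weight per group, 150 and 119 with array weights, and 0 and 0 with the 10 arrays compared. At an adjusted p under 0.01 it called 0 higher, and over every probe set 7 higher, with 359 probe sets without overlap higher and 405 lower. Leaving out 1 tumour at a time gave 0 to 19 calls higher and 0 to 8 lower, and 217 to 462 genes without overlap higher and 243 to 476 lower where the tumour was of the genotypes compared; 0 were called without L858R+T790M replicate 1 or T790M replicate 4 or 5. Centring arrays on their medians left 124 genes without overlap lower. The fit with the replicate number as a block called 2 higher and 0 lower, 1 of them shared with the 2 above, and 2 of 5 L858R+T790M tumours correlated best with the T790M tumour of the same number. Slc26a4 was not called under that block (adjusted p = 0.1496) or with 1 weight per group (0.05155). Of 35 list medians 33 moved by less than 1 SD of the list mean under every alternative run, and the exceptions were those of the EGFR ligands and of the ERBB receptors. This rule is loose for lists that vary widely between tumours. The adipose and cardiac muscle median (SD 1.082) went from -0.91 to -0.23 without T790M replicate 1. The interferon median (SD 1.012) went from 0.41 to 0.00 without L858R+T790M replicate 5. No named gene changed direction under the alternatives run. For the genes named by rule this was largely fixed in advance, since dropping arrays cannot reverse a gene without overlap. The spread among 5 tumours limits what can be called, and dim genes such as Nrg1 and Cdkn2a lie near the lower end of the scale.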
